A study of Mus musculus with 9 samples.

Results

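The insulin-like growth factor (IGF) system was examined in mouse mammary tumour cells through 10 genes: the ligands Igf1 and Igf2, the receptors Igf1r and Igf2r, and the binding proteins Igfbp2, Igfbp3, Igfbp4, Igfbp5, Igfbp6 and Igfbp7. They were chosen by name, as the genes whose symbol marked a probe in the scanner files of the Fzd8-CRD arrays. This gave 20 of the 41174 probes and 10 of the 27575 genes on the array. Of these, 19 probes and all 10 genes were bright enough to be tested, among 18270 genes tested in all.

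Expression was measured on 9 two-colour Agilent arrays, 5 of tumour cells labelled Fzd8-CRD and 4 of tumour cells labelled control. Fzd8-CRD is a Wnt inhibitor made from the ligand-binding, cysteine-rich domain of the receptor Frizzled 8. For every array the labels name tumours of both MMTV-Wnt-1 and MMTV-Her2 mice, in which the mammary tumour virus promoter drives the oncogene mainly in mammary epithelium, and freshly isolated cells sorted as GFP-negative. The share of each tumour type in a sample, the dose and time of treatment, the age of the animals and the controls' own treatment are not given in the sources used here. The treatment field names the inhibitor for control arrays too. Cy5 carried the tumour-cell RNA and Cy3 a common reference. The label fields disagree on that reference, as universal mouse RNA, as pooled strains and as universal human RNA.

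The IGF system works mostly outside the cell. Igf1 and Igf2 are secreted peptides that activate the receptor tyrosine kinase Igf1r, which signals through insulin receptor substrates, PI3K and Akt, while Igf2r takes up Igf2 for degradation in lysosomes. The binding proteins hold the ligands in solution or in the matrix, extend their life and limit or direct their access to the receptor. In the mammary gland the system is known for its part in ductal growth and in involution after lactation, when Igfbp5 is strongly induced.

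The arrays read each gene through 60-base probes. The sequences of 4 of them are shown, because the results below set them beside other probes of the same gene (Igf1, Igfbp3 and Igfbp4) or rest on them alone (Igfbp2). The Igfbp3 probe spans 1010 bases of the genome with 60 bases of sequence, so it joins separate genomic blocks. Positions are on build mm7, per the file headers, and no base is capitalised.
Igf1 probe, chr10:87471884-87471943, plus strand: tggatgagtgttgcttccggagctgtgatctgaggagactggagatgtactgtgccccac
Igfbp2 probe, chr1:73093964-73094023, plus strand: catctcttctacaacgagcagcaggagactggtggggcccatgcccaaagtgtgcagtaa
Igfbp3 probe, chr11:7160474-7161483, minus strand: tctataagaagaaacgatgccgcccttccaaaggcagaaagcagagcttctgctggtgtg
Igfbp4 probe, chr11:99157316-99157375, plus strand: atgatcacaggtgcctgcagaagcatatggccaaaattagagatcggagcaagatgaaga

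Because the treatment is a Wnt inhibitor, the 250 bases upstream of each member's transcription start (RefSeq, build GRCm38.p6) were searched on both strands for the core recognised by the Wnt effectors TCF and LEF. The motif CTTTGAT, the motif CTTTGTT, the motif CTTTGAA and the motif CTTTGTA were searched. All 10 members were in the table, with 14 starts. Only the Igf1 window held a match, with 1 copy of CTTTGAA and 1 copy of the CTTTGTA motif that do not overlap, both on the plus strand and starting 186 and 116 bases upstream. Over all 32851 windows of the same length 14.8% held at least 1 of the 4 motifs. The Igf1 window is shown with its matches in capitals, beside the windows of Igf1r and Igfbp5, the members with the largest increases, which held none.
Igf1 promoter, chr10:87860861-87861110, plus strand: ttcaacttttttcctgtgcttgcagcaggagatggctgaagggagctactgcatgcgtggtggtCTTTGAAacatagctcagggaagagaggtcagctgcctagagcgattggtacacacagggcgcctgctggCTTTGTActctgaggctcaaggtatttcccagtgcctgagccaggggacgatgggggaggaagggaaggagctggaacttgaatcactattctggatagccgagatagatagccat
Igf1r promoter, chr7:67952007-67952256, plus strand: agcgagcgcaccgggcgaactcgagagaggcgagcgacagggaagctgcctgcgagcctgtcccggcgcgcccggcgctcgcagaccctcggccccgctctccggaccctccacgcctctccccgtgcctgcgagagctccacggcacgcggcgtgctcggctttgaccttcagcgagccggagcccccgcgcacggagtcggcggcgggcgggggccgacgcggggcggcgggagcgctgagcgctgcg
Igfbp5 promoter, chr1:72874866-72875115, minus strand: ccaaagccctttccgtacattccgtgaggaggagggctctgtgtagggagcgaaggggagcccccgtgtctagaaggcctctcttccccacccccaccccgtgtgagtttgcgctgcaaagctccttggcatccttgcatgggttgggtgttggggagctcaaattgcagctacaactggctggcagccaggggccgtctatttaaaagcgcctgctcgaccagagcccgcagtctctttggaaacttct

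The 2 groups differed in ways that touch every result. The 5 Fzd8-CRD arrays lay on 4 slides scanned 367 or 378 days after the 1 slide that held all 4 control arrays, so slide, scan day and treatment cannot be told apart. The probe positions in the files are also on different builds, mm8 for Fzd8-CRD and mm7 for control. Probes well above background in Cy5 made up 52.5% to 60.0% on Fzd8-CRD arrays and 63.8% to 70.8% on control arrays. Control replicate 2 correlated with the other 8 arrays at r = 0.618 to 0.737 over probes. The summed Cy5 signal of the erythrocyte markers was 401 to 694 on the Fzd8-CRD arrays, below every control array, and 3541 to 14675 on the controls other than replicate 2, which held 471094. The part of these cells in the members' results was not tested. The Cy3 channel carries reference RNA, but after loess it also takes a share of each array's dye correction. So normalized, it differed between the groups at an adjusted p under 0.05 for 57.3% of all genes (26.8% higher and 30.5% lower in Fzd8-CRD). The same held for 9 of the 10 members (6 higher and 3 lower). The Cy3 groups did not overlap for 6 members, beside 49.1% of all genes. Each member is therefore given by its Cy5/Cy3 ratio, by Cy5 alone and by the Cy3 difference. Epithelial markers were bright on every array: the luminal list summed to 248485 to 509331 in Fzd8-CRD and 397172 to 676490 in control, and the basal list to 160218 to 368058 in Fzd8-CRD and 95952 to 197678 in control (Cy5 signal).

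Expression of the IGF receptor Igf1r and of the binding protein Igfbp5 was higher in Fzd8-CRD tumour cells, and that of Igfbp7 and Igfbp6 was lower, in both the ratio and Cy5 alone. By the ratio, 2 members rose (Igf1r and Igfbp5) and 3 fell (Igfbp3, Igfbp6 and Igfbp7), while the ligands Igf1 and Igf2, the receptor Igf2r and the binding proteins Igfbp2 and Igfbp4 did not pass the test. These 5 of 10 calls stand beside 14.3% of all genes called at an adjusted p under 0.05 (6.6% higher, 7.75% lower). By Cy5 alone 3 members rose (Igf1r, Igf2r and Igfbp5) and 2 fell (Igfbp6 and Igfbp7), against 19.3% of all genes (10.2% higher, 9.06% lower). These counts depended on single arrays: leaving out any 1 of the 9 gave 1 to 3 members by the ratio, with 1 left without control replicate 3 or control replicate 4, and 3 to 4 members by Cy5 alone. Genes called by the ratio numbered 2621 with all arrays, against 1340 without control replicate 3, 1612 without control replicate 4 and 1509 without Fzd8-CRD replicate 1. By Cy5 alone they numbered 3522, against 2177 without control replicate 3 and 2272 without Fzd8-CRD replicate 1. Calls in the same direction by both measures covered 4 members, beside 7.99% of all genes (3.64% higher, 4.35% lower). Over all genes 1205 were higher and 1416 lower by the ratio, against 1553 higher and 1216 lower by the scanner's own log ratio and 1534 higher and 1151 lower by the deposited series table. By Cy5 alone 1867 were higher and 1655 lower, against 768 higher and 2990 lower when each array was centred on its median Cy5. The median member differed by -0.10 in the ratio and 0.17 in Cy5, and the median of all genes by -0.07 and -0.01 (log2, Fzd8-CRD minus control). In such bulk samples fewer cells of a type and less RNA per cell cannot be told apart.

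**Figure D1:**
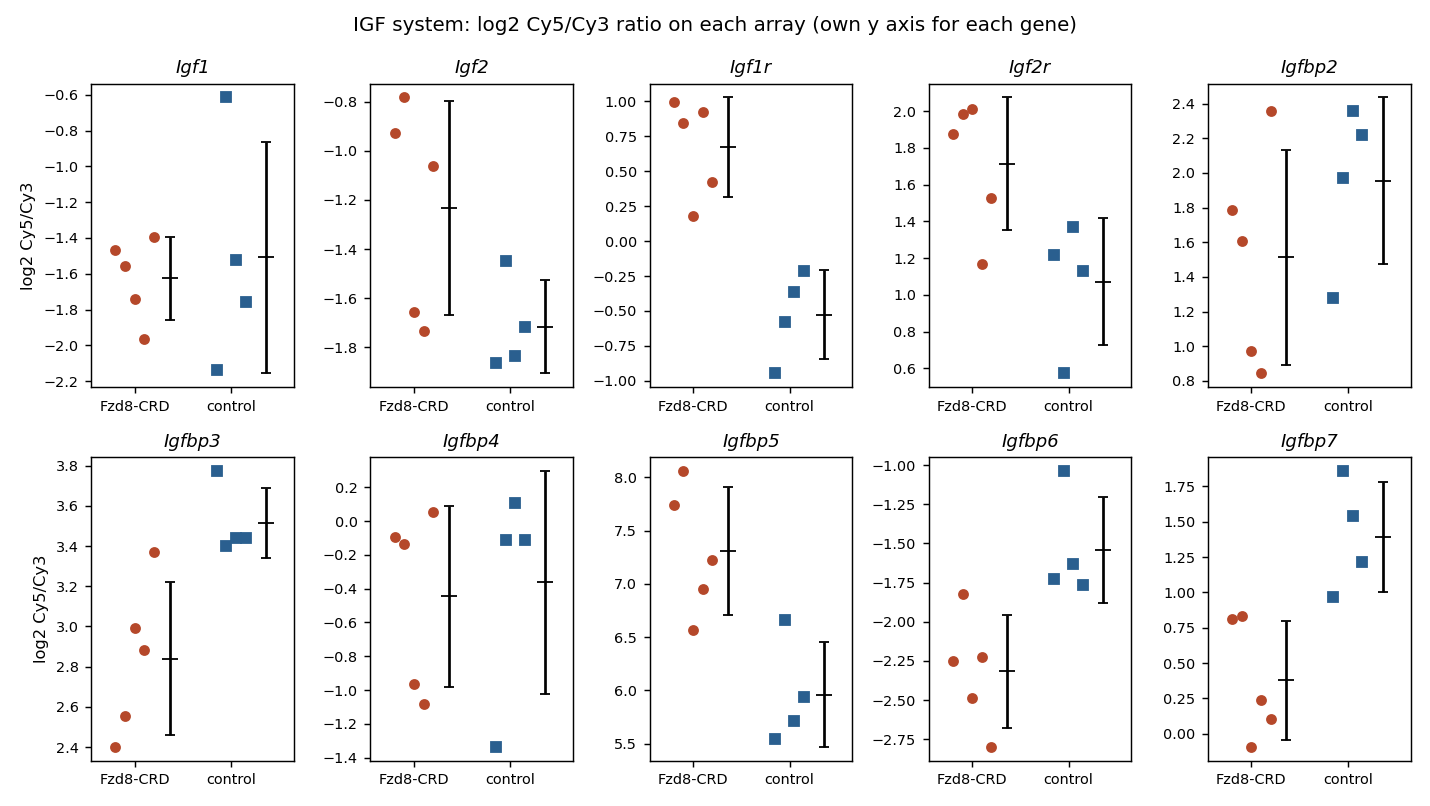
Log2 Cy5/Cy3 ratio of the 10 IGF system genes on each array (circles, 5 Fzd8-CRD arrays; squares, 4 control arrays), with the mean and SD of each group in black and a separate y axis for each gene. Igf1r lies above all controls on every Fzd8-CRD array, Igfbp3, Igfbp6 and Igfbp7 lie below them, and the groups of the other 6 genes overlap.

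Igf1, the ligand through which growth hormone acts on many tissues, did not differ between the groups beyond their spread. Its log2 ratios were -1.47, -1.56, -1.74, -1.97 and -1.40 on the Fzd8-CRD arrays, and -2.14, -0.61, -1.52 and -1.76 on the control arrays. The controls spanned the whole Fzd8-CRD range, with control replicate 2 highest and control replicate 1 lowest. The difference was -0.12 (SE 0.28, 95% interval -0.74 to 0.51, limma adjusted p = 0.796), and without control replicate 2 it was 0.18 (adjusted p = 0.509). The probe sits on the array in 10 spots, whose SD within an array was 0.0321 to 0.127, against an SD between arrays of 0.23 in Fzd8-CRD and 0.65 in control. A second Igf1 probe, the one printed above, gave -0.40 (adjusted p = 0.397), and the third was well above background in Cy5 on 0 of 9 arrays.

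Igf2, the growth factor encoded next to H19 at an imprinted locus, had log2 ratios of -0.93, -0.78, -1.66, -1.73 and -1.06 in Fzd8-CRD, against -1.86, -1.45, -1.84 and -1.72 in control. Fzd8-CRD replicates 1, 2 and 5 lay above all controls, and replicates 3 and 4 lay among them. The difference of 0.48 (SE 0.22, 95% interval -0.01 to 0.98) did not pass the test (adjusted p = 0.162), nor did the Cy5 difference of 0.55 (adjusted p = 0.120). Its 10 spots differed within an array by an SD of 0.0257 to 0.0880. A second, dimmer Igf2 probe, which exceeded the Cy5 background clearly on 3 of 5 Fzd8-CRD and 2 of 4 control arrays, was higher by 1.19 in the ratio (adjusted p = 0.0046 over all 26835 probes) but by only 0.34 in Cy5 (adjusted p = 0.243).

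Igf1r, the receptor tyrosine kinase for both ligands, rose in Fzd8-CRD tumour cells. It passed the test under 23 of 24 alternative settings for the ratio, some of which repeat the same values. On the Fzd8-CRD arrays its log2 ratios were 1.00, 0.85, 0.18, 0.92 and 0.42, and on the control arrays -0.95, -0.58, -0.36 and -0.21. All 5 Fzd8-CRD values lay above all 4 control values. Non-overlapping groups were found for 4 members by the ratio, beside 19.6% of all genes, and for 5 members by Cy5, beside 23.6% of all genes. The mean was 0.67 ± 0.35 in Fzd8-CRD and -0.53 ± 0.32 in control (SD, n = 5 and 4), a 2.30-fold increase (log2 1.20, SE 0.21, adjusted p = 0.0094). Log2 Cy5 ranged over 10.50 to 11.22 in Fzd8-CRD and 9.59 to 10.19 in control, again without overlap (log2 1.09, adjusted p = 0.0066). Before any normalization the groups did overlap: the scanner's mean Cy5 intensity was 1114 to 1684 in Fzd8-CRD and 724, 542, 1590 and 1767 in control. Cy3 for the same probe differed by -0.20. The call held when any 1 array was left out (adjusted p 0.0087 to 0.0274). With each Cy5 array centred on its median in place of quantile normalization, the Cy5 difference was 0.55 (adjusted p = 0.250), on a scale where the median of all genes itself shifted to -0.24.

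The 4 probes for Igf1r read different stretches of its locus on chromosome 7 and 3 of them rose. The probe above lies at chr7:68105625-68105684 (mm8). A probe at chr7:68101127-68101186 rose by 0.81 (adjusted p = 0.0362), and a probe at chr7:68061142-68061201, listed under a cDNA accession, rose by 1.43 (adjusted p = 0.0044). The fourth, at chr7:68100183-68100242, gave 0.45 (adjusted p = 0.431). On that probe control replicate 2 stood at 1.13, above all Fzd8-CRD arrays, which held 0.38, 0.54, -0.38, 0.60 and 0.31, while the other controls held -0.87, -0.37 and -0.54. In the control files 2 of these probes carry older names that RefSeq lists as synonyms of Igf1r. Which exons or UTRs these positions fall in was not analysed here.

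Igf2r, the mannose 6-phosphate receptor that also clears Igf2, was higher by Cy5 alone but did not pass the test in the ratio. Its log2 ratios were 1.88, 1.99, 2.01, 1.17 and 1.53 in Fzd8-CRD, against 1.22, 0.57, 1.37 and 1.13 in control. Only Fzd8-CRD replicate 4 lay within the control range (log2 0.64, SE 0.22, adjusted p = 0.0818). Log2 Cy5 was 12.98, 13.21, 13.12, 12.10 and 12.76 in Fzd8-CRD and 12.03, 11.01, 12.08 and 11.85 in control, with no overlap. The unnormalized Cy5 intensities overlapped, at 3196 to 7944 in Fzd8-CRD and 1354 to 6969 in control. By Cy5 alone the increase was 2.13-fold (log2 1.09, adjusted p = 0.0265), beside a Cy3 difference in the same direction of 0.36. With each Cy5 array centred on its median in place of quantile normalization, the Cy5 difference was 0.56 and did not pass (adjusted p = 0.309). The Cy5 call was lost when Fzd8-CRD replicate 1, 2, 3 or 5 or control replicate 4 was left out (adjusted p 0.0158 to 0.0593 over the 9 arrays left out in turn).

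**Figure D2:**
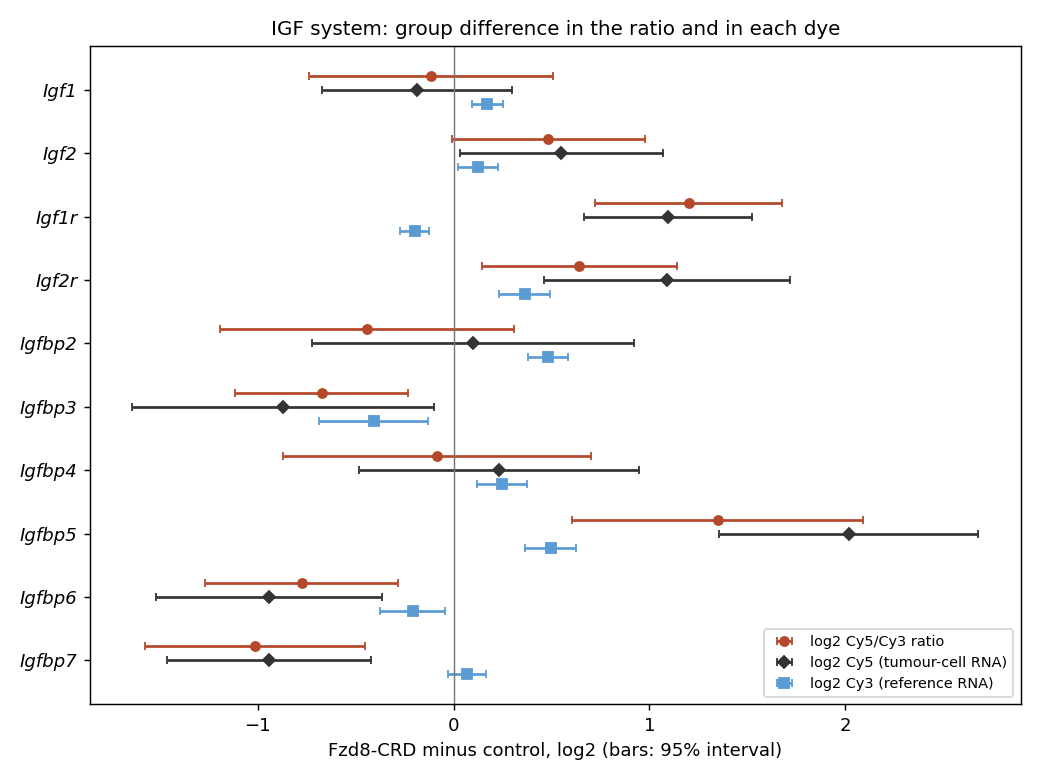
Difference between the groups for each IGF system gene (Fzd8-CRD minus control, log2, with 95% intervals) in the Cy5/Cy3 ratio, in Cy5 alone and in the reference channel Cy3. The Igf1r, Igf2r, Igfbp3, Igfbp5, Igfbp6 and Igfbp7 intervals, which are not adjusted for the number of genes, exclude 0 on the same side in ratio and Cy5, and Cy3 differences range from -0.41 for Igfbp3 to 0.50 for Igfbp5.

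The binding proteins moved in different directions, with Igfbp5 higher and Igfbp6 and Igfbp7 lower in Fzd8-CRD under all 24 ratio and 14 Cy5 alternatives run. Igfbp5, which binds matrix as well as IGFs and is induced during mammary involution, had the largest increase of the 10 genes in the ratio and in Cy5. Its log2 ratios were 7.75, 8.06, 6.56, 6.95 and 7.23 in Fzd8-CRD, against 5.54, 6.66, 5.71 and 5.93 in control. Fzd8-CRD replicate 3 lay just under control replicate 2, and the other 4 Fzd8-CRD arrays lay above all controls. The mean was 7.31 ± 0.60 in Fzd8-CRD and 5.96 ± 0.49 in control (SD, n = 5 and 4), a 2.55-fold increase (log2 1.35, SE 0.33, adjusted p = 0.0272). Log2 Cy5 was 16.57, 16.80, 15.53, 15.61 and 16.48 in Fzd8-CRD and 13.85, 14.63, 13.99 and 14.26 in control, which do not overlap. The unnormalized Cy5 intensity ranged over 38182 to 91309 in Fzd8-CRD and 14622.5 to 29719 in control, also without overlap. Cy5 alone gave a 4.05-fold increase (log2 2.02, adjusted p = 0.0033). The Cy3 signal of the probe was higher in Fzd8-CRD by 0.50.

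The Igfbp5 ratio call depended on single arrays: it was lost without Fzd8-CRD replicate 1, 2 or 5 or control replicate 1, 3 or 4 (adjusted p 0.0152 to 0.0745), while the Cy5 call held in all 9 cases (0.0031 to 0.0133). A second Igfbp5 probe read 4.93, 5.70, 2.86, 2.98 and 2.55 in Fzd8-CRD, against 2.10, 2.97, 3.17 and 3.08 in control. Only replicates 1 and 2 stood clear of the controls there, and the difference of 0.98 did not pass the test (adjusted p = 0.319). Its Cy5 difference of 1.82 did (adjusted p = 0.0264), and its Cy3 signal stood well above background on 2 Fzd8-CRD arrays of 5 and 4 control arrays of 4. Basal epithelial markers had a median difference of 0.79 in the ratio and 1.07 in Cy5. By the ratio 3 of 8 passed as higher and 0 as lower, beside 6.6% and 7.75% of all genes. By Cy5 alone 2 passed as higher and 0 as lower, beside 10.2% and 9.06% of all genes. No basal marker passed in both measures, and the part of these markers in the Igfbp5 result was not tested.

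Igfbp7, a low-affinity IGF binding protein abundant in blood vessels, was lower in Fzd8-CRD tumour cells. Its log2 ratios were 0.81, 0.83, -0.09, 0.24 and 0.10 in Fzd8-CRD, against 0.96, 1.86, 1.54 and 1.21 in control. The groups did not overlap, although Fzd8-CRD replicates 1 and 2 came close to control replicate 1. The mean was 0.38 ± 0.42 in Fzd8-CRD and 1.39 ± 0.39 in control (SD, n = 5 and 4), 2.02-fold lower (log2 -1.01, SE 0.25, adjusted p = 0.0276). Cy5 alone gave 13.59, 13.51, 12.56, 12.87 and 12.99 in Fzd8-CRD and 13.74, 14.32, 14.22 and 13.90 in control (log2 -0.94, adjusted p = 0.0228), and the unnormalized Cy5 intensities were 5416 to 9243 in Fzd8-CRD and 15230 to 31999 in control. It was the only member whose Cy3 signal did not pass the test between the groups (0.07, adjusted p = 0.217). The ratio call was lost without Fzd8-CRD replicate 4 or 5 or control replicate 3 or 4 (adjusted p up to 0.0745), and the Cy5 call without Fzd8-CRD replicate 4 or 5 or control replicate 3 (up to 0.0611).

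Endothelial markers fell together with Igfbp7. All 12 of 12 listed markers passed the test as lower by the ratio, beside 7.75% of all genes, with a median difference of -1.88. Their summed Cy5 signal was 2390 to 5113 in Fzd8-CRD and 9433 to 12658 in control. Among pericyte markers 3 of 6 passed as lower, with a list median of -1.33. Their sums were 3145 to 7389 in Fzd8-CRD and 5065 to 10411 in control. Among fibroblast markers 2 of 10 passed as lower, with a list median of -1.06. Their sums were 21527 to 53188 in Fzd8-CRD and 23551 to 135691 in control. Not all markers of these lists were lower. Pdgfra, Pdpn, Postn and Dcn of the fibroblast list differed by 0.81, 0.60, 0.41 and 0.04 in the ratio. Notch3 of the pericyte list differed by 0.12, and none of these passed. By Cy5 alone 12 of 12 endothelial, 2 of 6 pericyte and 2 of 10 fibroblast markers passed as lower, beside 9.06% of all genes. All the markers of these 3 lists were bright enough to be tested, so none was at background throughout. The filter could be met by the control arrays alone. Tek and Tie1 of the endothelial list and Fap of the fibroblast list, named after their values were seen, passed as lower. They exceeded the Cy5 background clearly on only 2, 3 and 3 of 5 Fzd8-CRD arrays, against 4 of 4 control arrays. The part of the marked cells in the Igfbp7 result was not tested.

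Igfbp6, the binding protein with a preference for Igf2, had log2 ratios of -2.25, -1.83, -2.48, -2.22 and -2.80 in Fzd8-CRD, against -1.72, -1.04, -1.63 and -1.77 in control. The groups did not overlap, with Fzd8-CRD replicate 2 just below control replicate 4. It was 1.71-fold lower by the ratio (log2 -0.78, SE 0.22, adjusted p = 0.0445). Log2 Cy5 ranged over 8.57 to 10.05 in Fzd8-CRD and 10.15 to 10.53 in control (log2 -0.94, adjusted p = 0.0329), and the unnormalized Cy5 intensity over 324 to 784 in Fzd8-CRD and 972 to 1905 in control. The ratio call held only without Fzd8-CRD replicate 2 and was lost on leaving out any of the other 8 arrays (adjusted p 0.0323 to 0.0862). The Cy5 call held without Fzd8-CRD replicate 2 or 5 and was lost in the other 7 cases (0.0170 to 0.0657).

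Igfbp3, the main carrier of IGFs in serum, was lower by the ratio at the edge of the threshold. Its log2 ratios were 2.40, 2.56, 2.99, 2.88 and 3.37 in Fzd8-CRD, against 3.77, 3.40, 3.44 and 3.44 in control. The groups did not overlap, with Fzd8-CRD replicate 5 just under control replicate 2. The 1.60-fold decrease (log2 -0.67, SE 0.20) had an adjusted p of 0.04999, and it held only without Fzd8-CRD replicate 5 among the 9 arrays left out in turn (adjusted p 0.0247 to 0.104). Cy5 alone differed by -0.87 but overlapped and did not pass the test (adjusted p = 0.102), Cy3 was also lower in Fzd8-CRD by 0.41, and scaling the arrays to a common spread turned the ratio difference to 0.93 (adjusted p = 0.446).

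The 3 Igfbp3 probes did not move alike. The probe printed above, across separate genomic blocks, read 0.23, 0.16, 0.44, 0.56 and 0.54 in Fzd8-CRD, against 0.97, 0.76, 1.39 and 1.09 in control. It fell by 0.67 in the ratio (adjusted p = 0.0204), but by only 0.18 in Cy5 (adjusted p = 0.566), and its Cy3 signal stood well above background on 1 Fzd8-CRD array of 5 and 4 control arrays of 4. The third probe, at chr11:7111815-7111874 (mm8) and named only by a cDNA accession in the control files, gave -0.09 in the ratio (adjusted p = 0.812). Its Cy5 signal was higher by 0.65 (adjusted p = 0.0294), opposite to the other probes, and its Cy3 signal was well above background on 0 of 9 arrays.

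**Figure D3:**
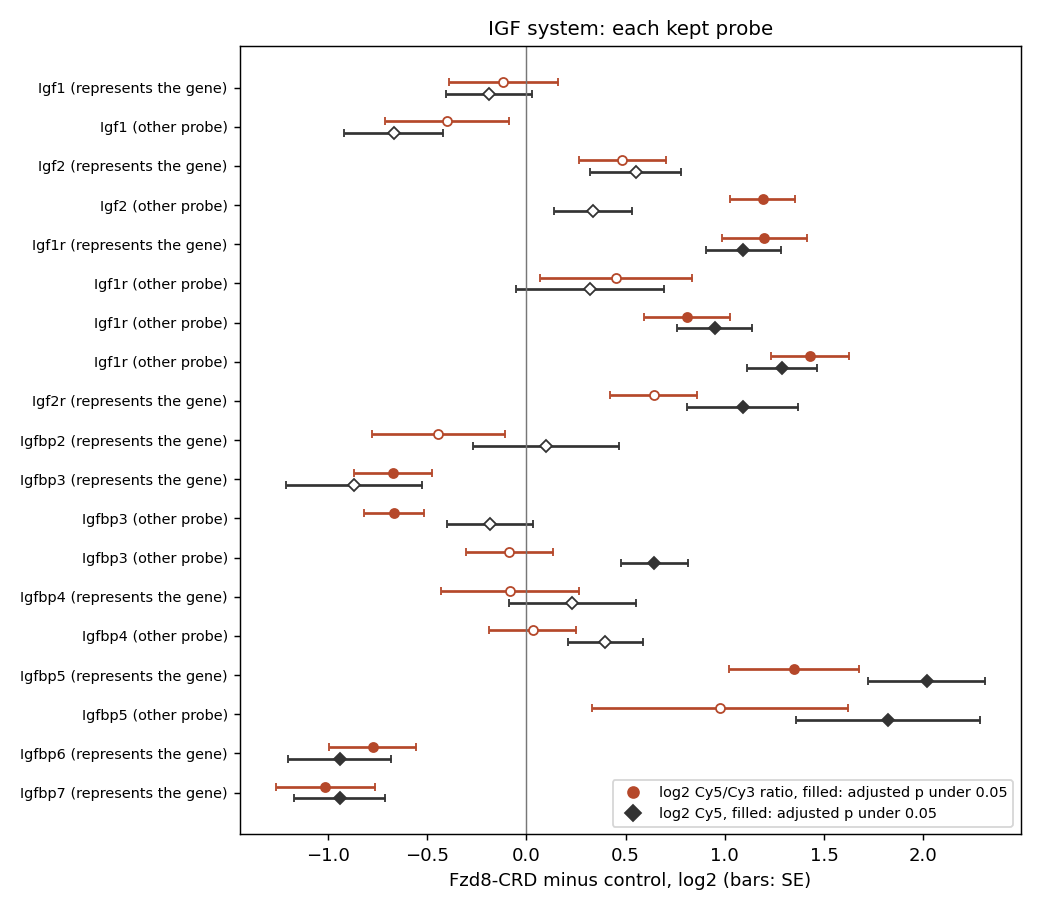
Difference of each of the 19 kept probes (Fzd8-CRD minus control, log2, with SE) in the Cy5/Cy3 ratio (circles) and in Cy5 alone (diamonds), filled where the adjusted p over all probes was under 0.05. Of the 4 Igf1r probes 3 are filled in both measures, and the 3 Igfbp3 probes lie on different sides of 0 in Cy5.

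Igfbp2 and Igfbp4 did not pass the test by either measure. Igfbp2, an IGF carrier found at raised levels in many tumours, had log2 ratios of 1.78, 1.60, 0.97, 0.84 and 2.35 in Fzd8-CRD, against 1.28, 1.97, 2.36 and 2.22 in control (log2 -0.44, 95% interval -1.19 to 0.31, adjusted p = 0.377). The groups overlapped over most of their range, and Cy5 alone gave the opposite sign at 0.10 (adjusted p = 0.867) beside a Cy3 difference of 0.48. Igfbp4, which is cleaved by Pappa and has been described as a Wnt antagonist that binds Frizzled 8 and Lrp6, had log2 ratios of -0.10, -0.13, -0.97, -1.08 and 0.06 in Fzd8-CRD, against -1.34, -0.11, 0.11 and -0.11 in control. Its difference was -0.08 (95% interval -0.87 to 0.70, adjusted p = 0.890) in the ratio and 0.23 (adjusted p = 0.622) in Cy5. The second Igfbp4 probe, printed above, gave 0.03 in the ratio (adjusted p = 0.934).

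Some arrays held the extreme values of their group for several members at once. Among the Fzd8-CRD arrays, replicates 3 and 4 were the lowest pair for Igf1, Igf2, Igfbp2, Igfbp4 and Igfbp5, 5 of the 10 genes. Among the controls, replicate 1 was the lowest for 7 genes, and replicate 2 was the lowest or highest for 7. The same ranks over all genes were not counted. Without control replicate 2, Igf1r rose by 1.18 (adjusted p = 0.0153) and Igfbp5 by 1.58 (0.0152) in the ratio, and Igfbp7 fell by 0.86 (0.0465). Igfbp6 at -0.61 (0.0684) and Igfbp3 at -0.71 (0.0558) no longer passed. In Cy5 alone without that array, Igf1r, Igf2r, Igfbp5 and Igfbp7 passed with 1.03, 0.85, 2.17 and -0.85, and Igfbp6 did not (-0.87, adjusted p = 0.0591).

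**Figure D4:**
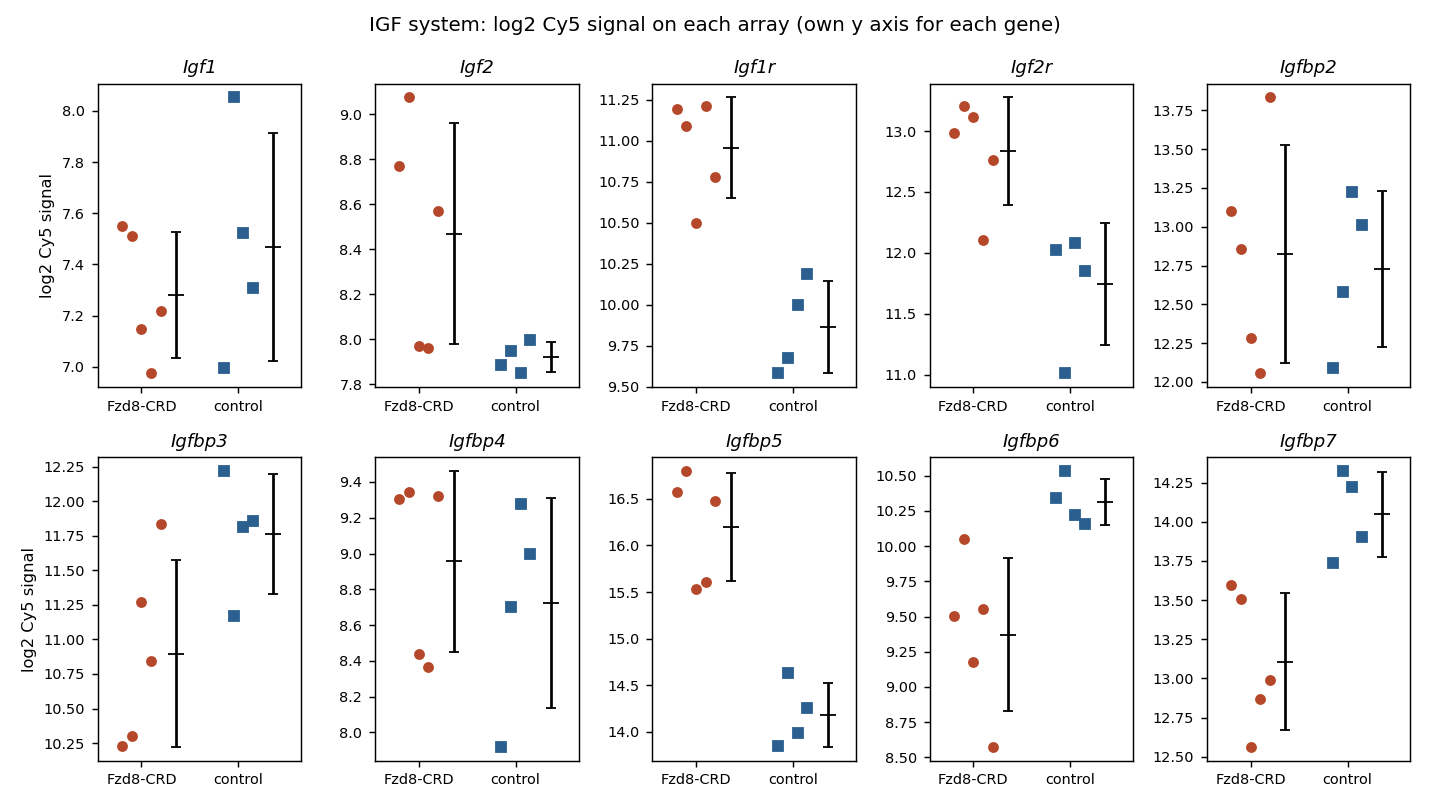
Log2 Cy5 signal of the 10 IGF system genes on each array after quantile normalization (circles, 5 Fzd8-CRD arrays; squares, 4 control arrays), with the mean and SD of each group in black and a separate y axis for each gene. The groups are separate for Igf1r, Igf2r, Igfbp5, Igfbp6 and Igfbp7.

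The rest of the pathway was followed through 6 lists with 63 genes, of which 59 were tested. By the ratio 2 of these passed as higher and 3 as lower (8.47% of the 59, against 14.3% of all genes). By Cy5 alone 7 passed as higher and 4 as lower (18.6%, against 19.3%). Among 10 tested receptors and adaptors, Gab1, a docking protein that recruits PI3K, fell by 0.96 (adjusted p = 0.0108). Gab1 read 1.79, 1.69, 2.17, 2.03 and 1.82 in Fzd8-CRD, against 2.51, 2.64, 3.23 and 3.06 in control, without overlap. Its Cy5 difference of -0.42 did not pass (adjusted p = 0.187). The Gab1 call was lost under the scanner's own log ratio (-0.55, adjusted p = 0.176), and scaling the arrays to a common spread turned its sign (0.14). The list's median was -0.16 in the ratio.

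Among the 18 genes of the PI3K, Akt and mTOR arm only Pdpk1, the kinase that phosphorylates Akt, passed in the ratio (log2 0.58, adjusted p = 0.0428). Its Cy5 signal did not rise (-0.13, adjusted p = 0.618), whereas its Cy3 signal was lower in Fzd8-CRD by 0.81, and its 2 other probes gave 1.08 and -0.06 without passing. The Pdpk1 call was lost on leaving out any array but Fzd8-CRD replicate 5 or control replicate 2 (adjusted p 0.0241 to 0.105). By Cy5 alone 2 genes of the arm passed as higher and 0 as lower, beside 10.2% and 9.06% of all genes. They were Akt1 at 0.66 (ratio 0.04, Cy3 0.57) and Pik3r1 at 0.64 (ratio 0.63, Cy3 -0.08), named after their values were seen. The median of the arm was 0.13 in both measures.

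Among 10 tested IGFBP proteases and their inhibitors, 0 passed as higher and 1 as lower by the ratio, beside 6.6% and 7.75% of all genes. Stc1, a stanniocalcin (a family that inhibits the Igfbp4 protease Pappa), was lower by 1.37 (adjusted p = 0.0047) with log2 ratios of 0.16, -0.04, 0.21, 0.34 and -0.10 in Fzd8-CRD, against 1.75, 1.90, 1.13 and 1.16 in control. All 3 of its probes fell, and so did its Cy5 signal (-1.12, adjusted p = 0.0066).

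Among 9 tested genes of the ternary complex and of proteins that share the IGFBP domain, Kazald1, a secreted protein with that domain, rose by 1.20 (adjusted p = 0.0488, Cy5 1.29). The Kazald1 ratio call held only without Fzd8-CRD replicate 3 or 4 among the 9 arrays left out in turn (adjusted p 0.0265 to 0.106). Esm1, a proteoglycan secreted by endothelial cells, fell by 2.77 (adjusted p = 0.0018, Cy5 -2.31). Esm1 read 0.46, 0.56, 0.31, -0.26 and -0.36 in Fzd8-CRD, against 3.69, 2.75, 2.58 and 2.61 in control, beside the endothelial marker sums given above. The part of those cells in its change was not tested.

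None of the 6 genes of the Igf2 RNA-binding and imprinted-locus list passed in either measure by limma, with 1 at an unadjusted p under 0.05 in the ratio and 0 in Cy5. The one with the largest difference, Igf2bp3, gave an adjusted p of 0.0687 and exceeded the Cy5 background clearly on 0 of 5 Fzd8-CRD arrays, so no fold is given. Its call and its direction depended on the processing: of 23 alternatives 3 called it higher in Fzd8-CRD and 2 called it lower, with both lower calls from the scanner's own log ratio (adjusted p = 0.0073) and the deposited series table (adjusted p = 0.0077). None of the 6 growth hormone axis genes passed by the ratio in limma (1 at an unadjusted p under 0.05), where Socs2, a feedback inhibitor of growth hormone signalling, was nearest at 0.47 (adjusted p = 0.0713). By Cy5 alone 2 of the 6 passed as higher and 0 as lower, beside 10.2% and 9.06% of all genes. They were Socs2 at 0.78 (adjusted p = 0.0184) and the growth hormone receptor Ghr at 0.73 (adjusted p = 0.0117), named after its value was seen. The Ghr ratio differed by only 0.17 (adjusted p = 0.449), beside a Cy3 difference of 0.46 in the same direction. The Cy3 difference of Socs2 was 0.15, and the mean of its probes gave 0.27 in the ratio (adjusted p = 0.186).

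**Figure D5:**
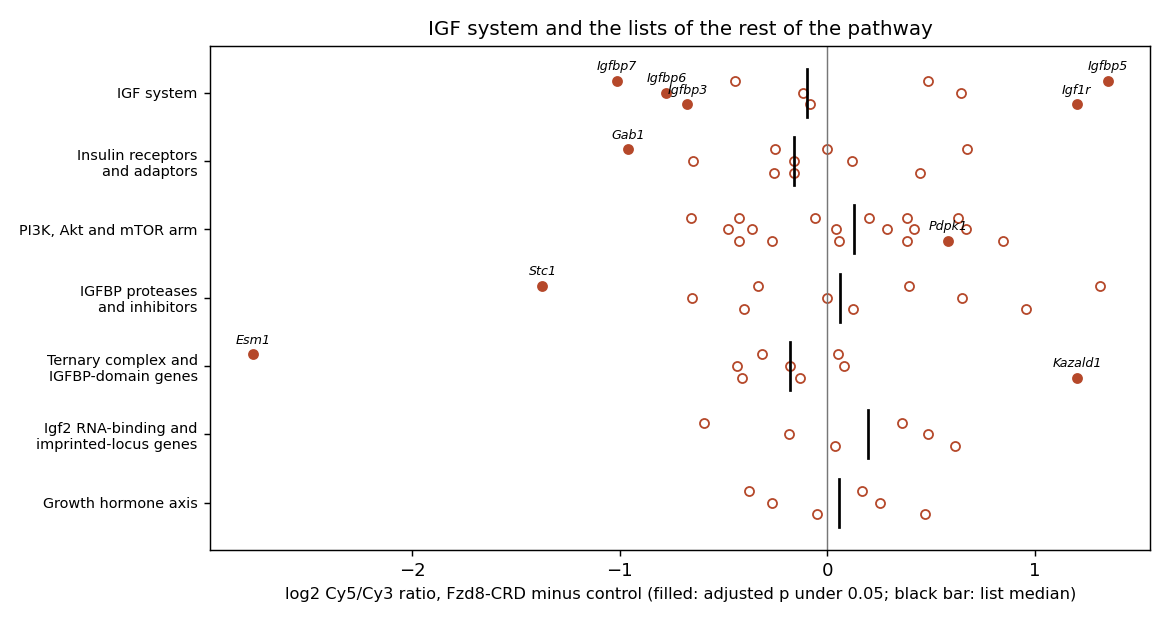
Log2 Cy5/Cy3 ratio difference (Fzd8-CRD minus control) of every tested gene of the IGF system and of 6 lists of the rest of the pathway, filled and named where the adjusted p was under 0.05, with each list's median as a black bar. Filled points are 5 of 10 in the IGF system and 5 of 59 in the other lists together.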

How the data were processed

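Sorted tumour-cell RNA was measured on 5 Fzd8-CRD and 4 control arrays, grouped by their treatment label. The design text calls them biological replicates but names no animals, so p-values measure the spread between these samples. Per the file headers, the linear spot intensity in both dyes comes from version 9.5.3.1 of Agilent Feature Extraction. Per the file headers too, the log10 ratio is that program's own background-subtracted, dye-corrected value. A series table deposited by the authors gives a linear ratio (array medians 0.833 to 0.954), and the log2 of it correlated with the scanner ratio at 1 throughout.

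Background was corrected by normexp (offset 50), and ratios were normalized within arrays by loess with limma 3.58.1 (R 4.3.3, data.table package 1.17.8). Of 45018 spots per array, 1639 were controls, given no weight, and 1229 spots flagged as outliers over all arrays were left out. No spot was saturated (0). The offset makes differences of dim genes understated. Spots of a probe were averaged, and 26835 probes (65.2%) well above background in Cy5, in at least a 0.5 share of their spots, on at least 4 arrays were kept. The brightest kept probe represented a gene (6125 genes had several), which gave 18270 genes. Cy5 alone and Cy3 alone are the log2 channels after loess and quantile normalization of each channel. Loess splits its correction between the dyes, so neither channel is fully free of the other. Groups were compared with lmFit and eBayes, with Benjamini-Hochberg adjustment over all genes (for probes, over all 26835 probes) and a threshold of 0.05. The number of arrays limits the precision. The code was tested on simulated data. Symbols were updated from RefSeq by accession for 23359 probes, by symbol for 6728 and by synonym for 2915, and the other 8172 carry the file's own name.

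The 10 members, the pathway lists and the marker lists were chosen with earlier results of these data known. The named genes are all members and, from each pathway list, those past the threshold in the ratio (at most 4), or the 1 with the largest difference where none passed. Other genes are marked where they appear. Marker lists of macrophages (1 of 8 passed as lower by the ratio), lymphocytes (0 of 8), erythrocytes (2 of 3 tested) and adipocytes (1 of 1 tested) were also summed. Of all genes 7.75% passed as lower. The macrophage marker that passed, Mrc1, exceeded the Cy5 background clearly on only 1 of 5 Fzd8-CRD arrays. In the luminal epithelial list 2 of 8 passed as lower and 0 as higher by the ratio, with a median of -0.66. By Cy5 alone 1 of its markers passed as lower and 0 as higher. Alternatives covered background correction, normalization, filters, probe choice, array weights, slide as a random block, leaving out arrays and averaging the closest pairs.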

Additional observations from a re-analysis of the deposited data

Results flagged for a closer look

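Dixon's test at the 95% level was run on the log2 ratio and log2 Cy5 values of each member in each group, 40 groups of values in all, and 2 were past its critical value, about what chance gives for 1 group in 20. Both came from control replicate 1. Its Igfbp3 log2 ratio of 3.77 lay above those of the other 3 controls (3.40 to 3.44). Without it the Igfbp3 difference was -0.59 (limma adjusted p = 0.104). Its Igfbp4 log2 ratio of -1.34 lay below those of the other 3 controls (-0.11 to 0.11). Without it the Igfbp4 difference was -0.41 (limma adjusted p = 0.355).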

How the results depend on the processing

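All 24 ratio settings and all 14 Cy5 settings kept the direction of Igf1r, Igf2r, Igfbp5, Igfbp6 and Igfbp7, with ratio ranges of 0.97 to 1.40, 0.48 to 1.28, 1.16 to 4.46, -1.82 to -0.61 and -1.16 to -0.71. Igf1r passed in 23 of 24 ratio and 13 of 14 Cy5 settings, Igfbp5 in 15 and 14, Igfbp7 in 18 and 11, Igfbp6 in 10 and 7, Igfbp3 in 6 and 2, Igf2r in 4 and 8, and Igf2 in 2 and 0. Against 5 members and 2621 genes called by the ratio, the scanner's log ratio and the series table each called 3 members, median centring 3 members and 613 genes, scaling between arrays 1 and 1602, and no filter 3. Array weights gave 7 members and 6017 genes (control replicate 2 weighted 0.156, the highest array 4.11) and slide as a random block 6 members and 5502 genes (consensus correlation -0.168). Averaging the closest pairs, control replicates 3 and 4 (r = 0.979) and Fzd8-CRD replicates 1 and 2 (r = 0.976), gave 0 members and 338 genes with fewer samples, where Igf1r had 1.22 (adjusted p = 0.0549). Leaving out each array in turn gave 1340 to 3093 genes and 1 to 3 members by the ratio, and 2177 to 3557 genes and 3 to 4 members by Cy5.

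Signs turned in the ratio for Igfbp4 under the scanner's log ratio and the series table (0.016 each), median centring (0.026), Cy5 alone (0.23) and some arrays left out (-0.41 to 0.077). They also turned for Igf2 (-0.20), Igfbp2 (0.50), Igfbp3 (0.93), Gab1 (0.14) and Igf2bp3 (-0.32, not a fold, since its probe was not well above the Cy5 background on any Fzd8-CRD array) under scaling, for Igfbp2 (0.10) and Pdpk1 (-0.13) by Cy5 alone, for Igf2bp3 under the scanner's log ratio and the series table (-1.25 each, adjusted p = 0.0073 and 0.0077, with the same limit), and for Igf1 under array weights (0.021) and with arrays left out (-0.33 to 0.18). In Cy5 they turned under median centring for Igfbp2 (-0.41) and Igfbp4 (-0.23), and with arrays left out for Igf1 (-0.35 to 0.0066), Igfbp2 (-0.15 to 0.29) and Igfbp4 (-0.036 to 0.42). The cause was not tested. Aquantile leaves ratios unchanged by construction, testing every kept probe leaves the members' differences unchanged, and the series table repeats the scanner's ratio. Cy5 alone is also counted among the ratio settings, so these are not all separate checks. The slide block cannot separate slide from treatment, since all controls lay on the same slide. No paired analysis was possible because the replicate numbers only follow the order of the samples. Signal over background limits the dim second probes of Igf2, Igfbp3 and Igfbp5.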
